A study of Mus musculus with 6 samples.

Results

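The semaphorin, ephrin, Slit and netrin guidance genes were taken from whole mouse lung as every gene ID built from Sema, Plxn, Eph, Efn, Slit, Robo, Ntn, Unc5 or Dpysl with its digit and letter suffix, plus Nrn1. The epoxide hydrolases (Ephx) and Unc50, which is not an Unc5 receptor, were left out. This gave 73 genes of the 40842 reference genes in the tables. Of these, 54 had a mean of at least 1 FPKM (fragments per kilobase of transcript, scaled to the size of the library) over the 6 libraries and were tested, and 19 lay below that level.

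PolyA RNA of lung tissue was sequenced in 3 libraries of irradiated mice (irradiated 1 to 3) and 3 libraries of control mice (control 1 to 3). The irradiated mice had been given 20 Gy at once, as electrons of 9 MeV, and their libraries carry the label 100 days. The control mice were untreated and their libraries carry the same label. Depth estimated from the tables was 5.11 to 10.4 Gb per library, highest in irradiated 2. All were wild-type females of the C57BL/6N strain. Their age, the part of the body exposed and whether the libraries of a group came from separate mice are not stated, so the spread behind each p-value is that between libraries and may be technical.

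Guidance molecules were named for steering axons, and the same ligands and receptors shape blood vessels, epithelia and immune cell traffic. Semaphorins signal through plexins, with neuropilins as co-receptors of the secreted class. Ephrins are membrane-bound ligands of the Eph receptor tyrosine kinases, Slits bind Robo receptors, and netrins bind the receptor Dcc and the Unc5 receptors. The Dpysl genes encode collapsin response mediator proteins, cytosolic proteins first known from semaphorin signalling, and Nrn1 encodes neuritin, a small protein held to the membrane by a lipid anchor. In vessels, ephrin-B2 marks arteries and its receptor EphB4 marks veins.

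The RefSeq promoter windows (GRCm38.p6, 250 bases before to 50 after the start of the gene) of 3 semaphorins are shown because these had the smallest p-values among the guidance genes with a window in that table, which holds 60 of the 73. Each is written 5′ to 3′ on the strand of its gene, and capitals mark matches on either strand to the motifs listed after them, so that a match on the opposite strand is spelled as its reverse complement. The windows lie at chr9:57939862-57940161 on the plus strand (Sema7a), chr6:82939720-82940019 on the minus strand (Sema4f) and chr14:31217623-31217922 on the plus strand (Sema3g).
Sema7a: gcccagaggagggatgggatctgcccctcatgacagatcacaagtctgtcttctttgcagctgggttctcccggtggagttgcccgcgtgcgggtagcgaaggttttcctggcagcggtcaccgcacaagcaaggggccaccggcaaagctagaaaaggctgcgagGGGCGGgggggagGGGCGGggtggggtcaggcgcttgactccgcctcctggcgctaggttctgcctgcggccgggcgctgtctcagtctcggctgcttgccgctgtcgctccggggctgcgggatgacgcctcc
Sema4f: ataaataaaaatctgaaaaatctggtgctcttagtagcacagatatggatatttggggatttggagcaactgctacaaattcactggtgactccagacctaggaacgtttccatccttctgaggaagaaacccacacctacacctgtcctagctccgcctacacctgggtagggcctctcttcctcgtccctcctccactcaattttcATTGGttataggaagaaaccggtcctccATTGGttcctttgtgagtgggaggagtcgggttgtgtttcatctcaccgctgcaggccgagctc
Sema3g: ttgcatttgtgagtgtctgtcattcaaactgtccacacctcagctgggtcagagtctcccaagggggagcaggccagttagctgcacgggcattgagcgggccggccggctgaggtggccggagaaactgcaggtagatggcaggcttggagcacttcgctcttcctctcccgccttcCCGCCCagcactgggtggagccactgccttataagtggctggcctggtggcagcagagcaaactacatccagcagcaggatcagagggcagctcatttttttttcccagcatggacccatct
The motifs searched were the GC box GGGCGG, the CCAAT box CCAAT, the TATA box TATAAA, the AP-1 site TGANTCA, the E-box CACGTG and the p53 half-site. Of these motifs, the Sema7a window held 2 GC boxes, the Sema3g window held 1 GC box, and the Sema4f window held 2 CCAAT boxes. Of 32851 windows of the same length, 35.7% held a GC box and 37.4% a CCAAT box. The letters of the other motifs, found in 13.6% (TATA box), 7.81% (AP-1 site), 7.15% (E-box) and 8.36% (p53 half-site) of all windows, were in none of the 3.

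Nrn1 and Dpysl2 fell in irradiated lung, and no other guidance gene passed the test. With limma over 13908 genes, 2 of the 54 tested guidance genes passed an adjusted p of 0.05, 0 of them higher and 2 lower, where 0.18% of all tested genes passed (0.0647% higher and 0.115% lower). Counting Nrn1 and Dpysl2, 23 of the 54 had an unadjusted p under 0.05 (11 with higher and 12 with lower values in irradiated lung), where 17.7% of all tested genes did (7.41% higher and 10.3% lower). In 28 of the 54, again with Nrn1 and Dpysl2 among them, the irradiated values lay all above (11) or all below (17) the control values, against 24.5% of all tested genes (9.91% above and 14.6% below). These counts describe the tested genes and support nothing further. Members were chosen with earlier results of these data known, and Nrn1 was added by name. Efna3, Efna5, Epha7, Ntn3 and Unc5c passed the filter only through the group where they are high. Efna3, Epha7, Ntn3 and Unc5c are among the 28, and Efna3 and Unc5c among the 23. Directions were mixed, with 20 positive and 34 negative log2 changes, where 6147 of all tested genes had positive and 7761 negative changes. The median was −0.10, against −0.03 over all genes tested. The guidance median was −0.17 without irradiated 1 and −0.04 without irradiated 2. After rescaling FPKM to a common sum there were 27 positive and 27 negative changes, and the median was 0.01 over the guidance genes and 0.08 over all genes. Changes are given as the irradiated mean minus the control mean of log2(FPKM + 1), and the added 1 makes the change of genes at low levels look smaller. In bulk tissue, fewer cells of a type and less RNA per cell cannot be told apart.

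**Figure D1:**
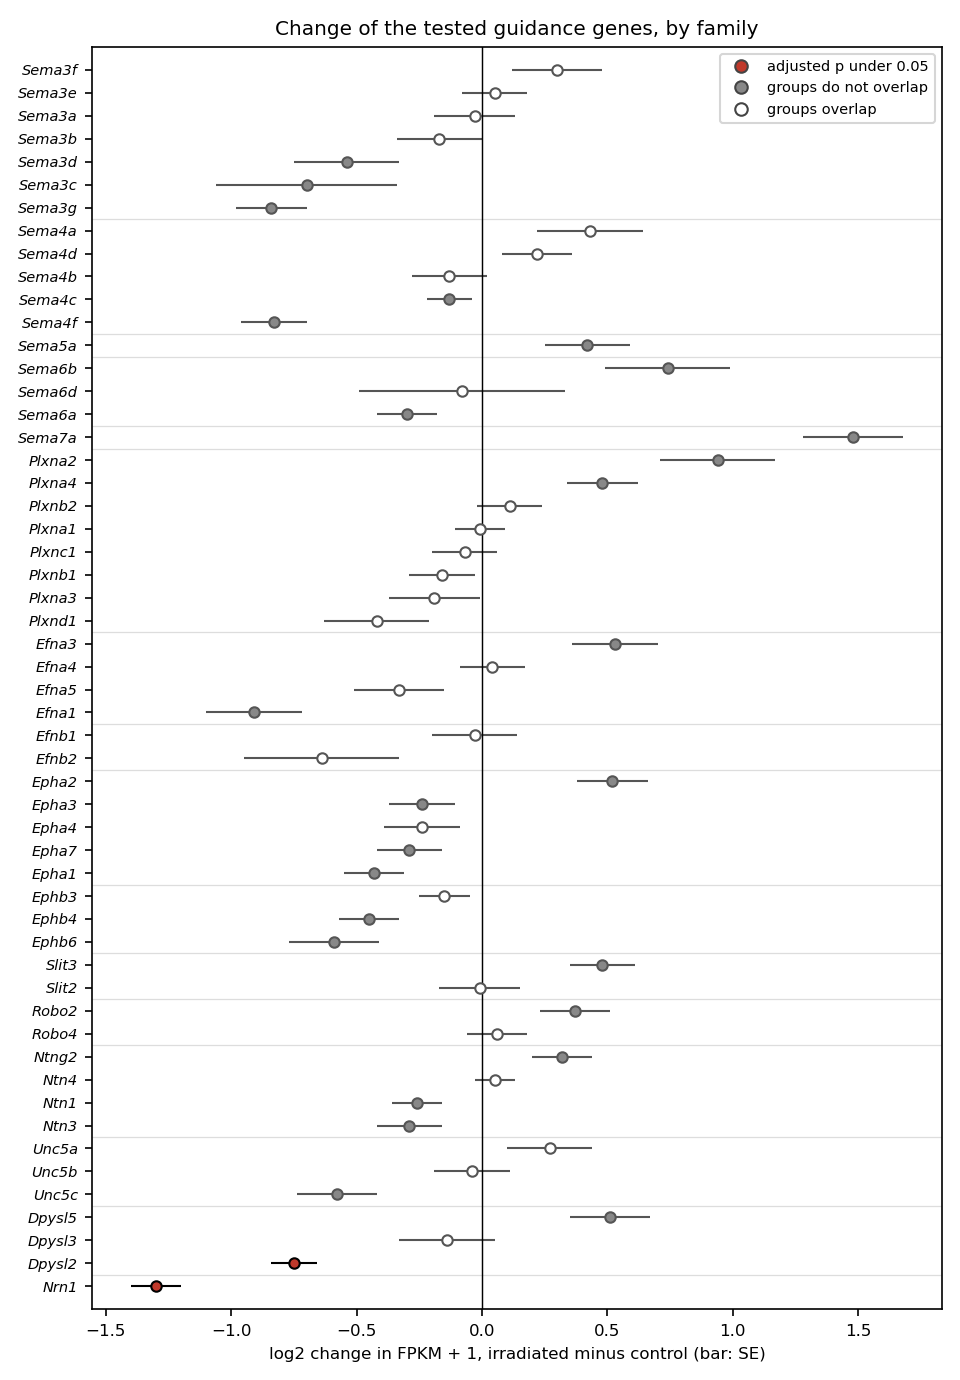
Log2 change in FPKM + 1 (irradiated minus control, horizontal axis, with its SE) of the 54 tested guidance genes, in rows grouped by family. Nrn1 and Dpysl2 are filled red (adjusted p under 0.05), grey points are genes whose groups do not overlap, and the largest positive change is that of Sema7a at 1.48.

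Nrn1 had 4.30, 4.32 and 4.79 FPKM in irradiated 1 to 3, against 11.2, 13.6 and 12.7 FPKM in control 1 to 3. The irradiated libraries lay close together and all lay below the lowest control. Its log2 change of −1.30 ± 0.10 (SE; limma adjusted p = 0.0298) had the smallest p of the 13908 genes, at rank 1. As Nrn1 was added by name with earlier results known, this rank says nothing about the guidance genes as a list. The gene lies on chromosome 13, 36909596 to 36918451, minus strand, in GRCm39 coordinates of the files, and each value is for the whole gene. Dpysl2, which regulates the assembly of microtubules, had 15.7, 14.6 and 16.2 FPKM in irradiated 1 to 3 and 24.5, 28.1 and 27.6 FPKM in control 1 to 3. Again every irradiated value was below every control value, with a log2 change of −0.75 ± 0.09 (limma adjusted p = 0.0452), on chromosome 14, 67040313 to 67148490. Nrn1 passed without irradiated 1 (limma adjusted p = 0.0447) and without irradiated 3 (0.0326). It missed the threshold without irradiated 2 (0.0642), without control 1 (0.203), without control 2 (0.121) and without control 3 (0.0985). Dpysl2 passed without irradiated 3 (0.0404) and missed the threshold without irradiated 1 (0.0507), irradiated 2 (0.0968), control 1 (0.203), control 2 (0.157) or control 3 (0.186). Dpysl2 also missed it after rescaling to a common sum (0.0536) and with median-ratio scaling (0.0657). With these 2 scalings both genes kept a negative change. Leaving out 1 library could not have reversed the sign, as the groups do not overlap in either gene.

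The other Dpysl genes did not pass the test or were not tested. Dpysl5, a family member known from developing neurons, had 3.17, 4.63 and 3.06 FPKM in irradiated lung, against 2.44, 1.91 and 2.26 FPKM in control lung (log2 change 0.51 ± 0.16, limma adjusted p = 0.19). Its irradiated values lay above its control values, the opposite order to Dpysl2, and no test of the difference between the 2 genes was made. Dpysl3 overlapped between the groups (9.01 ± 2.80 FPKM in irradiated and 9.76 ± 0.0482 FPKM in control lung, mean ± SD, n = 3 each, as for all such values), with 12.2 FPKM in irradiated 1 and under 8 FPKM in the other irradiated libraries. Dpysl4 was below 0.1 FPKM in every library.

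**Figure D2:**
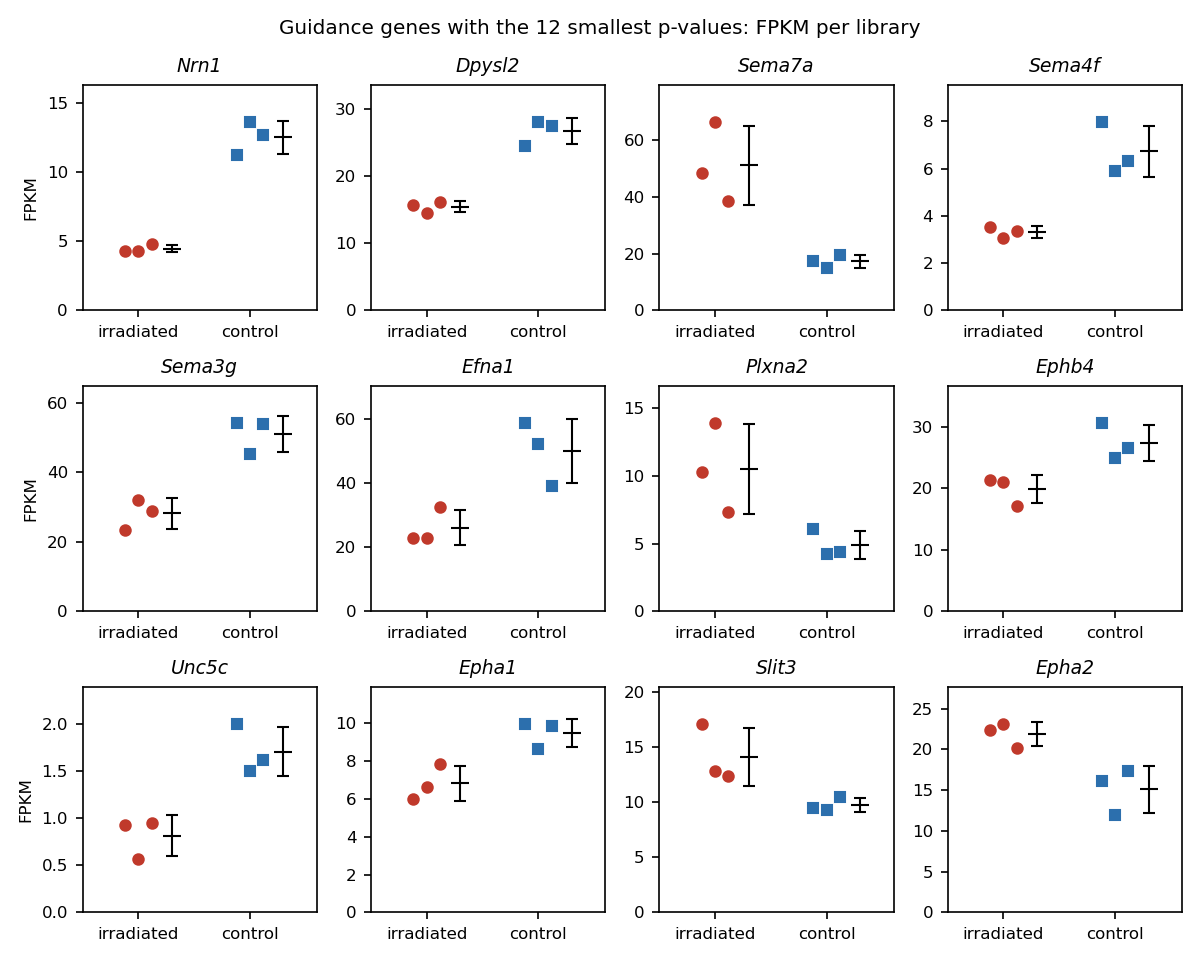
FPKM (vertical axes, from 0) per library for the 12 guidance genes with the smallest p-values, irradiated (circles) and control (squares), with mean and SD in black. In all 12 panels the groups do not overlap: Sema7a, Plxna2, Slit3 and Epha2 are higher in irradiated lung, and the other 8 are lower.

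Among the semaphorins, Sema7a had the highest values relative to control. This lipid-anchored semaphorin binds integrins and plexin C1 and is known as a regulator of immune cells. It had 48.3, 66.3 and 38.7 FPKM in irradiated 1 to 3, against 17.5, 14.9 and 19.6 FPKM in control 1 to 3. The lowest irradiated library was above the highest control by a wide margin, and the ratio of means was 2.95. Its log2 change of 1.48 ± 0.20 missed the threshold (limma adjusted p = 0.0565) and passed it without irradiated 3 (0.0326) and with a minimum of 5 FPKM. Sema7a made up 15.6%, 19.5% and 15.8% of the summed semaphorin FPKM in irradiated 1 to 3, against 5.53%, 5.29% and 6.16% in control 1 to 3. Its plexin receptor gene, Plxnc1, was at 4.16 ± 0.388 FPKM in irradiated and 4.45 ± 0.602 FPKM in control lung, with overlapping groups (95% interval of the log2 change −0.37 to 0.22).

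Sema3g and Sema4f had the largest negative changes among the tested semaphorins. Sema3g, a secreted semaphorin of arterial endothelium, had 23.5, 32.1 and 29.0 FPKM in irradiated 1 to 3 and 54.2, 45.2 and 54.0 FPKM in control 1 to 3 (log2 change −0.84 ± 0.14, limma adjusted p = 0.0701). Sema4f, a transmembrane semaphorin, had 3.54, 3.05 and 3.34 FPKM in irradiated 1 to 3 and 7.96, 5.90 and 6.30 FPKM in control 1 to 3 (−0.83 ± 0.13, adjusted p = 0.0652). In both genes every irradiated library was below every control. Sema7a, Sema4f and Sema3g, whose promoters are shown above, lie on chromosome 9 (57846879 to 57870148), chromosome 6 (82888865 to 82916750) and chromosome 14 (30939830 to 30952309) in GRCm39.

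Several of the remaining secreted semaphorins were among the most abundant guidance transcripts of lung. Sema3c, known for its part in the development of the outflow vessels of the heart, had the highest mean of all guidance genes (69.3 FPKM over the 6 libraries). It was at 72.8, 65.8 and 27.2 FPKM in irradiated 1 to 3, against 79.9, 76.5 and 93.7 FPKM in control 1 to 3. The groups did not overlap, but irradiated 3 stood apart: the log2 change was −0.70 ± 0.36 (adjusted p = 0.367) and −0.26 without that library. Sema3d, at a low level, also had separate groups (2.26 ± 0.735 FPKM in irradiated and 3.71 ± 0.848 FPKM in control lung, adjusted p = 0.253). Sema3f, which signals through neuropilin 2, had 50.9 ± 11.4 FPKM in irradiated and 40.7 ± 5.12 FPKM in control lung, and Sema3e, a ligand that binds plexin D1 directly, had 18.5 ± 3.17 FPKM in irradiated and 17.7 ± 0.931 FPKM in control lung. These 2 genes, Sema3a and Sema3b overlapped between the groups.

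Of the transmembrane classes, Sema6b had 3.18, 7.19 and 5.92 FPKM in irradiated 1 to 3, against 2.97, 2.48 and 2.67 FPKM in control 1 to 3 (log2 change 0.74 ± 0.25, limma adjusted p = 0.205). Irradiated 1 lay just above the controls and the other irradiated libraries well above them, and without irradiated 1 the gene passed (adjusted p = 0.0489). Sema4a, which acts in T cell activation, was likewise highest in irradiated 2 and 3, with 12.5, 21.0 and 22.0 FPKM in irradiated 1 to 3 and 14.5, 12.4 and 12.4 FPKM in control 1 to 3, and its groups overlapped (adjusted p = 0.332). The summed FPKM of 5 neutrophil markers (S100a8, S100a9, Cxcr2, Csf3r and Retnlg) was 213, 4631 and 1386 in irradiated 1 to 3, against 159, 73.7 and 493 in control 1 to 3. It too was higher in irradiated 2 and 3 than in irradiated 1, and its part in the values of Sema6b and Sema4a was not tested. Sema5a had higher values after irradiation (a mean of 4.36 ± 1.15 FPKM in irradiated and 2.94 ± 0.212 FPKM in control lung, adjusted p = 0.262) and Sema6a, a transmembrane ligand of A-type plexins, had lower ones (6.14 ± 0.638 FPKM in irradiated and 7.78 ± 0.962 FPKM in control lung, adjusted p = 0.265). In all, 17 of 20 semaphorins were tested, 0 passed with limma, 3 had an unadjusted p under 0.05 with higher values and 4 with lower values. Of all tested genes, 7.41% had such a p with higher and 10.3% with lower values.

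The plexins, receptors of the semaphorins, were led in level by Plxnb2, with 41.7 ± 5.24 FPKM in irradiated and 38.5 ± 4.74 FPKM in control lung. Of 8 tested plexins 0 passed with limma. Plxna2 and Plxna4 were the ones with an unadjusted p under 0.05 (25.0%, near the 17.7% of all tested genes), both with higher values in irradiated lung. Plxna2, a receptor of class 6 semaphorins, had 10.3, 13.9 and 7.32 FPKM in irradiated 1 to 3, against 6.11, 4.23 and 4.37 FPKM in control 1 to 3 (log2 change 0.94 ± 0.23, adjusted p = 0.125). The irradiated values spread widely and stayed above all controls. Plxna4 had 5.34 ± 0.956 FPKM in irradiated and 3.51 ± 0.344 FPKM in control lung (0.48 ± 0.14, adjusted p = 0.166), and it overlaps the antisense gene Plxna4os1 (0.739 ± 0.128 FPKM in irradiated and 1.07 ± 0.148 FPKM in control lung), whose reads cannot be told apart from its own without a stated strand setting. Plxna1 was at 23.6 ± 0.0393 FPKM in irradiated and 23.9 ± 2.56 FPKM in control lung, with a 95% interval of the log2 change from −0.24 to 0.22.

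Among ephrins and Eph receptors, the ligand gene Efna1 had lower values in irradiated lung and its receptor gene Epha2 higher ones, and neither passed the test. Efna1, the ligand ephrin-A1, which is expressed in endothelium, had 23.0, 22.8 and 32.5 FPKM in irradiated 1 to 3, against 58.7, 52.1 and 39.1 FPKM in control 1 to 3. The highest irradiated library was below the lowest control (log2 change −0.91 ± 0.19, limma adjusted p = 0.097). Its main receptor gene, Epha2, had 22.4, 23.1 and 20.2 FPKM in irradiated 1 to 3 and 16.1, 11.9 and 17.4 FPKM in control 1 to 3, so that all irradiated values were above the controls (0.52 ± 0.14, adjusted p = 0.157). Efna1, Efna3 and Efna4 are neighbours on chromosome 3 (89179037 to 89188258, 89221200 to 89231359 and 89240700 to 89245335). Efna3 had higher values after irradiation, at a low level (1.37 ± 0.371 FPKM in irradiated and 0.637 ± 0.0928 FPKM in control lung, adjusted p = 0.189), and Efna4 was at 1.41 ± 0.0947 FPKM in irradiated and 1.35 ± 0.169 FPKM in control lung. Efna3 overlaps Gm15998 on the opposite strand (1.28 ± 0.370 FPKM in irradiated and 1.57 ± 0.299 FPKM in control lung), whose reads cannot be told apart from its own. Differences in direction between these genes were not tested.

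Of the B-type pair, Efnb2 had 13.8, 24.1 and 34.1 FPKM in irradiated 1 to 3, against 40.0, 29.5 and 38.6 FPKM in control 1 to 3. Irradiated 1 was lowest and irradiated 3 lay within the controls, and the log2 change of −0.64 ± 0.31 (limma adjusted p = 0.34) was −0.30 without irradiated 1. Ephb4 had 21.3, 21.1 and 17.2 FPKM in irradiated 1 to 3 and 30.6, 25.0 and 26.6 FPKM in control 1 to 3, with no overlap (−0.45 ± 0.12, adjusted p = 0.146). Efnb1, a ligand of several EphB receptors, overlapped between the groups (24.3 ± 5.70 FPKM in irradiated and 24.5 ± 2.85 FPKM in control lung, 95% interval of the log2 change −0.43 to 0.37). Of 8 tested Eph receptors 0 passed with limma and 7 had negative changes, where 7761 of all 13908 tested genes did. The median of the 8 was −0.27 (−0.19 after rescaling to a common sum, again with 7 negative). In 5 of the 7 the groups did not overlap, where 14.6% of all tested genes lay all below the controls. One of the 5, Epha7, passed the filter only through its control values. They included Epha1 (6.83 ± 0.933 FPKM in irradiated and 9.48 ± 0.733 FPKM in control lung, adjusted p = 0.153) and Ephb6, a receptor without kinase activity (1.82 ± 0.573 FPKM in irradiated and 3.21 ± 0.388 FPKM in control lung, adjusted p = 0.178). Epha1 overlaps Zyx on the opposite strand, which had 64.8 ± 22.9 FPKM in irradiated and 61.4 ± 4.91 FPKM in control lung.

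In the Slit and Robo pathway, Slit3 had 17.1, 12.8 and 12.4 FPKM in irradiated 1 to 3, against 9.51, 9.34 and 10.5 FPKM in control 1 to 3. All irradiated values were above the controls, with irradiated 1 highest (log2 change 0.48 ± 0.13, limma adjusted p = 0.157). Slit2, the ligand most studied in vessels, overlapped between the groups (4.89 ± 1.23 FPKM in irradiated and 4.85 ± 0.292 FPKM in control lung). Robo2 had higher values after irradiation (2.79 ± 0.497 FPKM in irradiated and 1.91 ± 0.168 FPKM in control lung, adjusted p = 0.236). Robo4, the family member of endothelium, overlapped (17.6 ± 1.24 FPKM in irradiated and 16.9 ± 2.20 FPKM in control lung, 95% interval of the log2 change −0.21 to 0.33). Robo1 and Robo3 were below the filter.

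Netrins were led by Ntn4, a netrin of basement membranes, at 32.6 ± 1.48 FPKM in irradiated and 31.5 ± 1.83 FPKM in control lung, with a 95% interval of the log2 change from −0.15 to 0.25. Ntn1, the classical netrin, had 14.4 ± 1.75 FPKM in irradiated and 17.4 ± 0.614 FPKM in control lung (limma adjusted p = 0.263), and Ntng2, a lipid-anchored netrin, had 6.97 ± 0.547 FPKM in irradiated and 5.42 ± 0.779 FPKM in control lung (adjusted p = 0.246). In each of these 2 genes the groups did not overlap, in opposite directions. Of the Unc5 receptors, Unc5c had 0.931, 0.568 and 0.950 FPKM in irradiated 1 to 3 and 2.00, 1.50 and 1.62 FPKM in control 1 to 3 (log2 change −0.58 ± 0.16, adjusted p = 0.147). It overlaps Bmpr1b on the opposite strand (1.18 ± 0.635 FPKM in irradiated and 1.49 ± 0.341 FPKM in control lung), and Ntng2 overlaps 6530402F18Rik on its own strand (3.01 ± 0.550 FPKM in irradiated and 2.18 ± 0.148 FPKM in control lung). Unc5c passed the filter through its control values, as did Ntn3, Epha7 and Efna5, while Efna3 passed through its irradiated values. Unc5b, an Unc5 receptor of endothelium, was at 3.23 ± 0.723 FPKM in irradiated and 3.31 ± 0.132 FPKM in control lung.

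**Figure D3:**
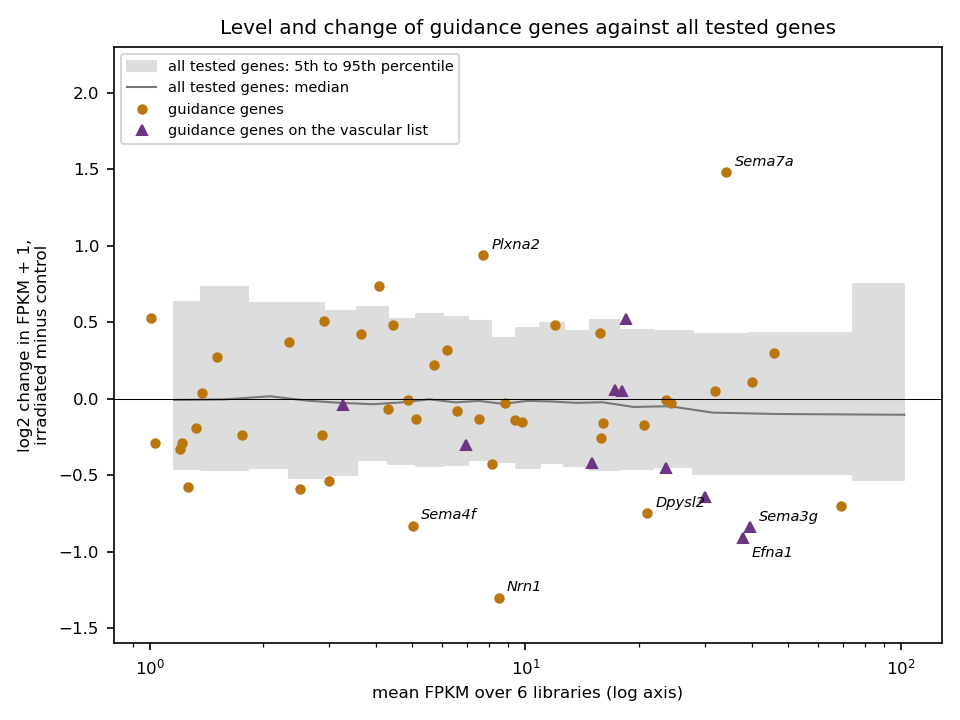
Mean FPKM over the 6 libraries (horizontal, log axis) against the log2 change (irradiated minus control) of the 54 tested guidance genes, with the median and the 5th to 95th percentile of all tested genes at that level in grey. Of the 54 genes 4 lie above the 5th to 95th percentile range of their level and 11 below it, with Sema7a and Plxna2 highest and Nrn1 and Efna1 lowest.

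A list of members with known roles in blood vessels was followed: Efna1, Epha2, Efnb2, Ephb4, Plxnd1, Robo4, Unc5b, Sema3e, Sema3g and Sema6a. It was drawn up with earlier results of these data known and leaves out other members with vascular roles. All 10 were tested, 0 passed with limma, and 5 had an unadjusted p under 0.05, of which Efna1, Sema3g, Ephb4 and Sema6a had lower and Epha2 higher values in irradiated lung. Of all tested genes, 17.7% had such a p (10.3% with lower and 7.41% with higher values). The median log2 change was −0.36, against −0.08 over the 44 tested members outside this list. Given how the list was drawn up, these values describe it and support no contrast with the other members. Changes were positive in 3 and negative in 7 of the 10 (4 and 6 after rescaling to a common sum, where Unc5b turned positive). Of all 13908 tested genes, 7761 had negative changes. Plxnd1, the endothelial receptor of Sema3e, had 12.4, 9.31 and 16.7 FPKM in irradiated 1 to 3 and 20.4, 16.0 and 15.2 FPKM in control 1 to 3, and irradiated 3 lay within the controls (log2 change −0.42 ± 0.21, adjusted p = 0.346, and −0.23 without irradiated 2). Their summed level was 165, 180 and 190 FPKM in irradiated 1 to 3, against 267, 222 and 239 FPKM in control 1 to 3.

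Endothelial markers had lower values in irradiated lung in some lists and not in others. All 8 markers of endothelium (Pecam1, Cdh5, Tie1, Egfl7, Cldn5, Kdr, Emcn and Tek) were present, with a summed level of 678 to 866 FPKM in irradiated and 807 to 1033 FPKM in control lung. None of the 8 passed with limma and 3 had an unadjusted p under 0.05, all with lower values in irradiated lung, with a median log2 change of −0.34 over the 8. These were Tek, the angiopoietin receptor (28.8 ± 7.68 FPKM in irradiated and 67.3 ± 9.44 FPKM in control lung, log2 change −1.22, adjusted p = 0.07), Tie1 (−0.52, adjusted p = 0.125) and Egfl7 (−0.46, adjusted p = 0.201), each with groups that did not overlap. Cdh5, the cadherin of endothelial junctions, averaged 126 FPKM in irradiated and 137 FPKM in control lung, and Pecam1 177 FPKM in irradiated and 174 FPKM in control lung. Arterial markers had a summed level of 28.4 to 44.4 FPKM in irradiated and 57.7 to 68.3 FPKM in control lung (4 of 5 tested, Dkk2 below the filter, median −0.80). Gja5, Sox17 and Hey1 had lower values in irradiated lung with separate groups. Bmx overlapped (4.48 ± 1.89 FPKM in irradiated and 4.33 ± 0.856 FPKM in control lung). General capillary markers summed to 221 to 305 FPKM in irradiated and 339 to 459 FPKM in control lung (5 of 5 tested, median −0.70, Aplnr passing). The summed level of 3 venous markers overlapped (84.9 to 97.2 FPKM in irradiated and 83.4 to 95.6 FPKM in control lung). Of the 3, Nr2f2 had lower values in irradiated lung with separate groups, and Slc6a2 and Vwf overlapped. Nr2f2 had 14.5 ± 1.22 FPKM in irradiated and 18.1 ± 1.58 FPKM in control lung (limma adjusted p = 0.207). Aerocyte markers, of the capillary cells of gas exchange, were at 290 to 390 FPKM in irradiated and 256 to 294 FPKM in control lung (median 0.25). The part of these marker differences in the values of Sema3g, Efna1, Efnb2 and Ephb4 was not tested.

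**Figure D4:**
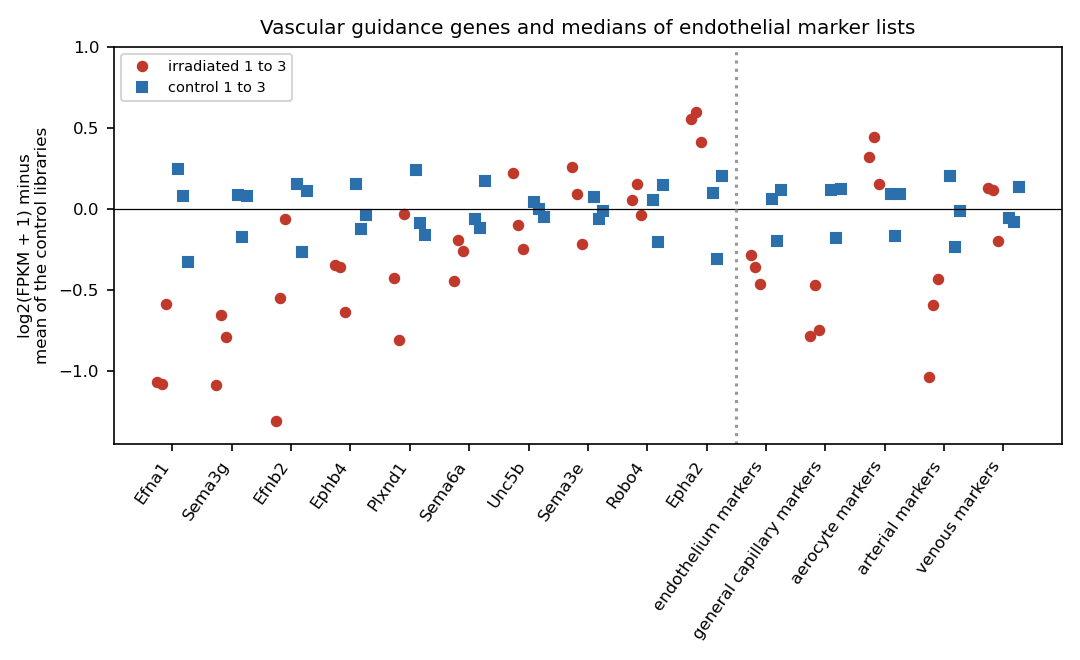
Log2(FPKM + 1) minus the mean of the control libraries (vertical axis) for the 10 vascular guidance genes and, right of the dotted line, the median over the markers of 5 endothelial lists, in irradiated 1 to 3 (circles) and control 1 to 3 (squares). Efna1 and Sema3g have the lowest irradiated means and do not overlap, Efnb2 spreads from −1.31 to −0.06 in irradiated lung, and Epha2 lies above the controls.

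Mesothelial markers (Msln, Upk3b and Lrrn4) summed to 36.5 to 86.5 FPKM in irradiated and 99.3 to 194 FPKM in control lung, with a median log2 change of −1.59 and all 3 at an unadjusted p under 0.05. Alveolar fibroblast markers summed to 242 to 258 FPKM in irradiated and 287 to 333 FPKM in control lung. Of 6 tested, 5 had negative changes and Pdgfra a positive one (0.25). Alveolar type 2 cell markers summed to 11366 to 12371 FPKM in irradiated and 17964 to 19938 FPKM in control lung, with 5 of 5 changes negative. Most of that sum was Sftpc (9048 FPKM in irradiated and 15497 FPKM in control lung), and Sftpa1 overlapped (889 and 904 FPKM). Leukocyte markers overlapped in sum (94.4 to 126 FPKM in irradiated and 89.5 to 96.3 FPKM in control lung), with 3 positive changes and a negative one for Cd79a (−0.47). The part of these marker differences in the values of Nrn1, Dpysl2 and Sema7a was not tested.

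Of 40 related genes outside the rule (co-receptors, further ligands and cytoplasmic partners), 33 were tested, 0 passed with limma, and 5 had an unadjusted p under 0.05 (15.2%, near the 17.7% of all tested genes), 1 with higher and 4 with lower values. Changes were positive in 17 and negative in 16 (24 and 9 after rescaling to a common sum). Nrp1, the neuropilin that serves both Sema3a and VEGF, had 50.4, 42.8 and 53.4 FPKM in irradiated 1 to 3, against 62.6, 55.3 and 62.0 FPKM in control 1 to 3 (log2 change −0.29 ± 0.11, adjusted p = 0.243). Every irradiated value was below every control. Nrp2 overlapped (8.85 ± 1.79 FPKM in irradiated and 9.40 ± 0.206 FPKM in control lung). Flrt2, a ligand of Unc5 receptors, had 2.36 ± 0.753 FPKM in irradiated and 4.11 ± 1.00 FPKM in control lung (adjusted p = 0.207), the adaptor Nck1 15.5 ± 2.84 FPKM in irradiated and 19.9 ± 1.32 FPKM in control lung (adjusted p = 0.253), and Mical2, an actin-oxidising enzyme, 18.3 ± 0.963 FPKM in irradiated and 21.6 ± 1.81 FPKM in control lung (adjusted p = 0.274). Vav3, an exchange factor that acts downstream of Eph receptors, was the gene with higher values (4.60 ± 0.530 FPKM in irradiated and 3.09 ± 0.300 FPKM in control lung, adjusted p = 0.146). The netrin receptor gene Dcc was below 0.02 FPKM in every library.

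The 19 guidance genes below the filter were not tested. Of these, 9 had a mean of 0.1 FPKM or less, and the other 10 lay above it. Ephb1, Ntn5 and Slit1, chosen after their values were seen, were the ones whose groups did not overlap. Ephb1 had 0.484, 0.197 and 0.231 FPKM in irradiated 1 to 3 and 0.629, 1.02 and 0.694 FPKM in control 1 to 3. Ntn5 had 0.172, 0.180 and 0.435 FPKM in irradiated 1 to 3 and 0.479, 0.822 and 0.660 FPKM in control 1 to 3, and Slit1 was under 0.06 FPKM throughout. The files hold no counts, so the counting error of values this low is unknown.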

How the data were processed

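Per the labels' protocols, lung RNA (TRIzol) went into mRNA libraries read on a DNBSEQ-T7 instrument. GRCm39, STAR 2.7.6a, fastp and DESeq2 are listed, without roles, in the submitters' processing notes. Which tool made the tables, and whether reads were assigned by strand, is not given in the sources used here. FPKM were used as deposited by the authors, per the file headers. Rows without a gene name were dropped and FPKM summed per gene ID. The deposited coverage (signal per base) served to estimate depth from its ratio to FPKM: 5.11 to 10.4 Gb of aligned sequence per library, irradiated 2 deepest. The commonest ratio of each library was used. It was held by 26.2% (irradiated 2) to 31.2% (control 3) of the entries with both values above 1, so the estimate is rough. The files hold no counts, so counting intervals are not given.

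The 13908 genes averaging 1 FPKM or more over the 6 libraries entered limma 3.58.1 (R 4.3.3; trend and robust variance) on log2(FPKM + 1), with no covariate besides group. Benjamini-Hochberg adjustment ran over these genes, with a threshold of 0.05. The procedure was run on simulated data with independent noise and with changes larger than those of the guidance genes. That run therefore says nothing about calls of smaller changes. The genes named are those called, those with an unadjusted p under 0.05, those with separate groups and a log2 change over 0.5 in size, the highest of each family, the vascular list and, of the related genes, those with an unadjusted p under 0.05. Members and lists were chosen with earlier results of these data known. Some of the marker lists are not reported here. Alternatives covered pseudocounts, filters, scalings, variance estimates, a replicate block and each library left out. Coordinates are those of the files, and their sequence names were matched to chromosomes through the RefSeq genes (GRCm38.p6) they carry. Python 3.11.15, pandas 2.3.3 and matplotlib 3.10.9 handled tables and figures.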

Additional observations from a re-analysis of the deposited data

How the results depend on the processing

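Many of the named guidance genes were chosen for a small p or separate groups in these same data. Where the groups do not overlap, leaving out libraries cannot reverse a sign, so a count of kept signs does not measure stability. Over 16 alternatives to the setting used (15 for genes averaging under 5 FPKM), 29 of 32 named and tested guidance genes kept the sign of their change. The exceptions were near 0: Unc5b was at 0.06 after rescaling to a common sum and 0.06 without irradiated 3, Robo4 at −0.09 without control 2 and irradiated 2 and −0.04 without control 2, and Sema3e at −0.01 without control 2 and irradiated 2 and −0.06 without irradiated 1. With each library left out in turn Unc5b ranged from −0.17 to 0.06, Robo4 from −0.04 to 0.13 and Sema3e from −0.06 to 0.18. Nrn1 missed the threshold in 7 and Dpysl2 in 11 of the 16. The number of guidance genes called by limma, 2 with all settings as reported, was 1 (Nrn1) after rescaling to a common sum, with median-ratio scaling or with neither trend nor robust variance. It was 0 without the filter on low values (26 of 73 at an unadjusted p under 0.05, where 3531 of all 31967 genes were). It was also 0 without control 2 and irradiated 2 (15 of 54, where 1511 of all 13908 genes were). Leaving out each library in turn gave 0 to 3 guidance genes and 0 to 116 of all genes, where 25 passed with all 6 (9 higher and 16 lower). The guidance count was 0 without irradiated 2 (19 of 54 at an unadjusted p under 0.05), control 1 (19), control 2 (16) or control 3 (18). Of all 13908 genes, 1992, 1905, 1488 and 1650 had such a p in these settings, in that order. For these the cause was not tested. Of all genes, 0 passed without the filter (3531 at an unadjusted p under 0.05), 38 with a minimum of 5 FPKM, 13 after rescaling to a common sum (7 higher and 6 lower), 11 with median-ratio scaling (4 higher and 7 lower) and 9 without control 2 and irradiated 2 (9 higher, with 2 of the 25 among them). Rescaling to a common sum moved the median log2 change of all genes to 0.08, against −0.03, and that of the guidance genes to 0.01, against −0.10 (−0.17 to −0.04 with each library left out in turn). The family medians that turned positive with this rescaling were those of the semaphorins (0.03), plexins (0.07), netrins (0.02) and Unc5 receptors (0.06). Without the filter the guidance median was −0.03, as 73 genes then entered. With a minimum of 5 FPKM, 34 guidance genes entered and 16 of these, against 28 of 54, had groups that did not overlap. The share over all genes with that minimum was not counted, so the 16 are not read further. Same-numbered libraries did not deviate together (correlations of their deviations −0.17, −0.54 and −0.28), and no library correlated best with its own number. Deviations from a mean of 3 libraries sum to 0 within a group, so these correlations cannot decide whether the numbers pair libraries. With the replicate block 0 guidance genes and 0 of all genes passed with limma, with 18 and 1623 at an unadjusted p under 0.05. The files hold no counts, so what depth limits was not measured.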
